A study of Mus musculus with 15 samples.

Results

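Fibroblast growth factors (FGFs), their receptors and the genes that FGF signalling itself induces were followed through 5 groups of mouse embryonic pancreas libraries. Members were taken by gene symbol: every FGF gene of the count table, the receptors Fgfr1 to Fgfr4, the receptor-like Fgfrl1, the Sprouty and Spred inhibitors, the phosphatases Dusp4 and Dusp6, and the ETS factors Etv1, Etv4 and Etv5. The rule found 37 of the 25292 genes in the table. They comprised 22 FGF genes, of which 18 encode secreted ligands and 4 the intracellular homologous factors Fgf11 to Fgf14, together with 5 receptors and 10 feedback or target genes. Spry3 had no row in the table and was not analysed here.

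All libraries were poly(A) RNA from C57/Bl6J pancreas taken at 14.5 dpc, with 3 libraries per group. Tissue of the wt group and of the group labelled S1pr2 null was sequenced without culture. Dorsal pancreatic explants formed the remaining groups and were kept for 2 days at the air-liquid interface without serum: control explants in standard medium, JTE explants with 15 µM JTE013, an antagonist of the sphingosine-1-phosphate receptor S1pr2, and JTE + CTGF explants with the same dose of JTE013 and 50 ng/ml connective tissue growth factor, a secreted matrix-associated protein. The null allele carries a Neo cassette in exon 1 in every cell, and each sample could pool up to 3 pups or explants, so p-values measure the spread between these pools. The comparisons asked how the FGF system differed without S1pr2, with its antagonist, and when CTGF was added to the antagonist.

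Depth was even, from 11402804 to 13828737 counted reads per library. S1pr2 itself stood at 772, 762 and 762 normalised read counts in wt and at 1458, 1263 and 1354 in the libraries labelled S1pr2 null, 1.77-fold higher (log2 difference 0.83 ± 0.07 SE, adjusted p = 4.5e-07). The gene's own count was thus not lower in these libraries, and it does not settle the label. Reads over the whole gene do not tell an intact transcript from one of the disrupted allele, and protein was not analysed here. By western blot the paper reports that the receptor protein was absent from null pancreata of the same stage. Whether the sequenced pools were among those blotted is not stated. Library JTE 3 stood apart: the chi-square per gene was 17.2 and 23.2 between it and the other JTE libraries, against 2.35 to 10.2 between all other libraries of one group. Its acinar markers summed to 93860 normalised read counts, against 171100 and 200800 in JTE 1 and JTE 2, and its mesenchymal markers to 172500 against 140400 and 150200. Control 3 was next, with a chi-square per gene of 10.2 and 8.18 against the other control libraries. It departed the same way: its acinar markers summed to 101500 against 134900 and 144600, and its mesenchymal markers to 136600 against 129800 and 131500. The mesenchymal sums mainly follow the collagens Col1a1, Col1a2 and Col3a1. Calls on members that were lost without JTE 3 are given with their value without that library.

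FGFs signal by binding receptor tyrosine kinases together with heparan sulphate, which activates the RAS-ERK cascade. ERK then raises ETS factors such as Etv4 and Etv5 and induces Sprouty, Spred and Dusp proteins that dampen the same cascade. In the embryonic pancreas Fgf10 from the mesenchyme acts on the epithelial isoform of Fgfr2 and is known to drive the expansion of progenitors.

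In wt pancreas the receptors were far better represented than the ligands (levels as RPKM, reads scaled by exonic length and library size, mean ± SD, n = 3). Fgfrl1, a receptor without a kinase domain, was the highest member at 36.0 ± 0.98 RPKM. Fgfr1 followed at 18.9 ± 0.26 RPKM, with Fgfr4 at 16.5 ± 1.5 and Fgfr2 at 13.6 ± 0.8 RPKM, and Fgfr3 was the lowest receptor at 6.01 ± 0.43 RPKM. Dusp6, Spry1, Spry2 and Spred1 lay in the range of the receptors, at 16.6 ± 1.3, 14.6 ± 1.3, 14.3 ± 0.85 and 12.6 ± 0.99 RPKM. Dusp6 and Fgfr4, and likewise Spry1 and Spry2, were neighbours in this order that did not differ beyond their spread.

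Among the FGF genes the intracellular factor Fgf11 had the highest wt level, 6.05 ± 0.1 RPKM. The best represented secreted ligand was Fgf18 at 3.25 ± 0.35 RPKM, followed by Fgf9 at 1.87 ± 0.23, Fgf1 at 1.81 ± 0.19 and Fgf10 at 1.46 ± 0.028 RPKM. Fgf9 and Fgf1 could not be ordered beyond their spread. Fgf7, a ligand of the same epithelial receptor as Fgf10, was near the floor at 0.0768 ± 0.028 RPKM. The filter on low counts removed 8 members, Fgf3, Fgf4, Fgf6, Fgf8, Fgf15, Fgf17, Fgf22 and Fgf23, with at most 7 reads in any library, so 29 of the 37 members were tested.

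**Figure D1:**
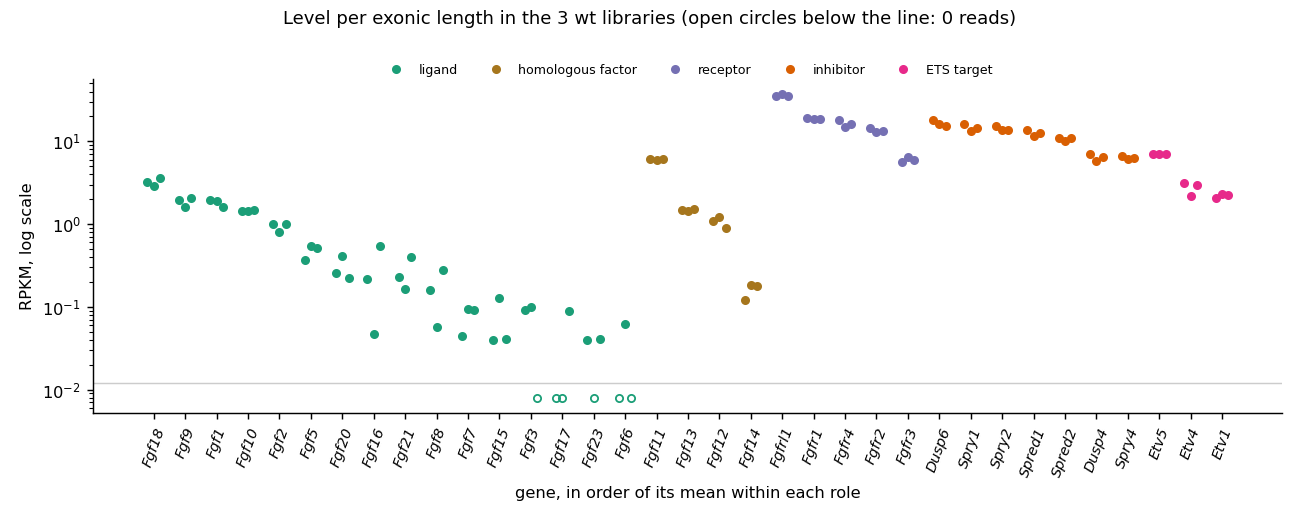
RPKM on a log axis in each of the 3 wt libraries, for the members with a read in at least 1 of them, coloured by role and ordered by mean within a role. Receptors and feedback inhibitors lie well above nearly all ligands. The highest receptor, Fgfrl1, is at 36.0 RPKM and the highest secreted ligand, Fgf18, at 3.25 RPKM.

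Of the members that changed with JTE013, the sequences just upstream of 5 are shown: Fgf10, Fgf11 and Fgf21, which rose, and Dusp6 and Etv1, which fell. Each is the 250 bases before the RefSeq start in GRCm38.p6, the mm10 assembly, written 5′ to 3′ on the strand of the gene, with motif matches in capitals. RefSeq windows were matched for 27 of the 37 members, 36 windows in all. They are at chr13:118714449-118714698 on the plus strand for Fgf10, chr11:69802281-69802530 on the minus strand for Fgf11, chr7:45615491-45615740 on the minus strand for Fgf21, chr10:99262981-99263230 on the plus strand for Dusp6 and chr12:38779832-38780081 on the plus strand for Etv1, where 2 starts are listed. The windows of Fgf21 and Dusp6 end at the base before the annotated gene, that of Fgf11 lies further upstream of it, and those of Fgf10 and Etv1 lie inside the annotated span, downstream of where the span begins.
Fgf10: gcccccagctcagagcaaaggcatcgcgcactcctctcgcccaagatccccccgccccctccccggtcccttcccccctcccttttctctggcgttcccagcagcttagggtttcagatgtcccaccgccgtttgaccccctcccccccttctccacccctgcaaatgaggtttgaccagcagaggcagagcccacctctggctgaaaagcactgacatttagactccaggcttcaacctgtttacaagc
Fgf11: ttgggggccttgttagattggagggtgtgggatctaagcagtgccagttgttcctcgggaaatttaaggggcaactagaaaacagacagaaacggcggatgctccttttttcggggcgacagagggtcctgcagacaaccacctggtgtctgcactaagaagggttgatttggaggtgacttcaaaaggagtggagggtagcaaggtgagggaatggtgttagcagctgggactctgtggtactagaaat
Fgf21: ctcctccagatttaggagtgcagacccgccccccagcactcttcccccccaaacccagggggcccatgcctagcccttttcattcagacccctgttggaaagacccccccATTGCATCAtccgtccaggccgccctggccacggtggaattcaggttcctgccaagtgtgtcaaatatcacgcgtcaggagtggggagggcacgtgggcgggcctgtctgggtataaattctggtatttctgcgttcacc
Dusp6: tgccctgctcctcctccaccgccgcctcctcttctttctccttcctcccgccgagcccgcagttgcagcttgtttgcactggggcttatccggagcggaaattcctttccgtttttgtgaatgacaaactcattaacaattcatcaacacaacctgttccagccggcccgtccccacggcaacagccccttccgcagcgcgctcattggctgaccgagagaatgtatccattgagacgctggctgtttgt
Etv1: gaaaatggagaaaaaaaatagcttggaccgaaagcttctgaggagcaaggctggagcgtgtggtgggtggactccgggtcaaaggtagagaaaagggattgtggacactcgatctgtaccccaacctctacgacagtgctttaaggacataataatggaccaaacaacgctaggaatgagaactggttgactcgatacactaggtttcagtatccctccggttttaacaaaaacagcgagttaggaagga

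Both strands were searched for TGATGNAAN, the composite element read by CCAAT-enhancer binding and ATF proteins, and for CCGGAAGT, a strong ETS site, and in the member windows their matches did not overlap each other. The first was found upstream of Fgf21, on the reverse strand, from base -140 to base -132 relative to the start (ATTGCATCA, in capitals above). It occurred in no other member window and in 1129 of 32851 windows of that length, 3.44%. The ETS site was present in 1 member window, that of Fgfrl1, and in 945 of all windows, 2.88%. These are matches of letters in the sequence only, since binding was not measured.

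Members were called where edgeR's quasi-likelihood test, fitted to all 15 libraries, gave a Benjamini-Hochberg adjusted p below 0.05 over 16245 genes. Between the libraries labelled S1pr2 null and wt 5 of 29 members were called, 4 higher and 1 lower, or 17.2% where 25.8% of all tested genes were called. With JTE013 15 members were called against control, 7 higher and 8 lower, 51.7% against 52.2% of all genes. Adding CTGF to JTE013 changed 9 members, 2 higher and 7 lower, 31% against 30.4%, and set against control the JTE + CTGF explants differed in 17, 6 higher and 11 lower, 58.6% against 61.1%. Control explants differed from wt in 13 members, 6 higher and 7 lower, 44.8% against 57.8%. Libraries of the compared groups did not overlap for 14, 16, 9, 17 and 15 of the 29 members in the same order, where 46.3%, 56.7%, 40.2%, 64.8% and 63.8% of all tested genes did not overlap. These shares lay near or below those of all genes and are no result about the members, which are described below by gene.

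Median differences over the tested members were small: 0.14 on the log2 scale for null against wt, -0.05 for JTE against control and -0.13 for JTE + CTGF against JTE, where the medians over all tested genes were -0.01, 0 and -0.002. Fgf20, Fgfrl1 and Spry2 were called in none of the 5 comparisons, although Spry2 was called in JTE + CTGF against JTE, 0.25 (adjusted p = 0.0298), and against control, 0.21 (adjusted p = 0.0203), once JTE 3 was left out. Fgf1, Fgf10 and Fgfr1 were then also called between control and wt, at 0.47 (adjusted p = 0.0365), -0.38 (adjusted p = 0.0408) and 0.14 (adjusted p = 0.0226). Without JTE 3 the counts of called members were 7, 14 and 8 in the same comparisons. Comparisons among the cultured groups share libraries and are not independent of one another. Control explants and wt differ in culture and in developmental time. The explants were also dorsal buds, where the paper describes the uncultured samples as embryonic pancreata. These differences cannot be told apart.

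**Figure D2:**
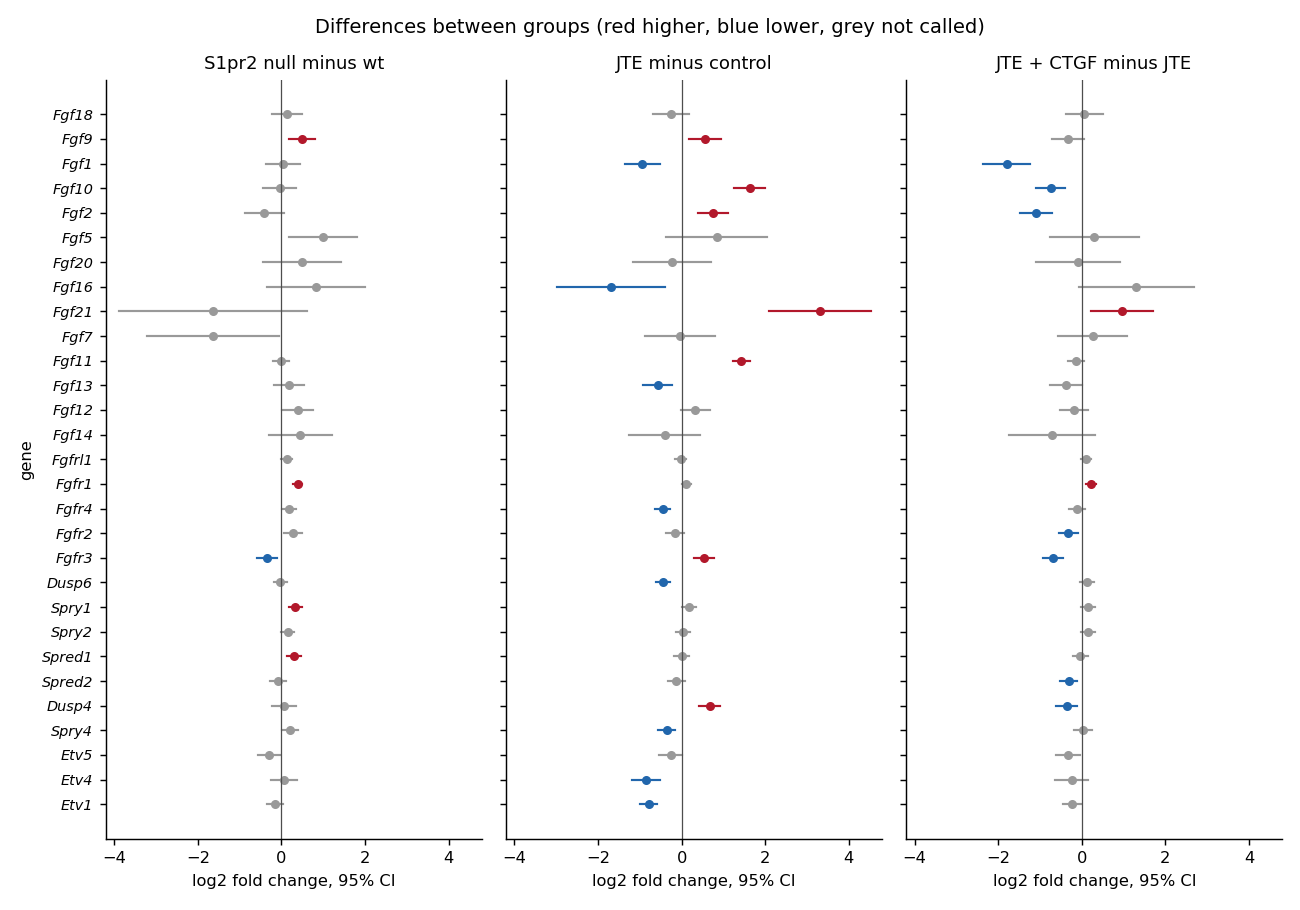
Log2 fold change with 95% confidence interval of the 29 tested members, for S1pr2 null minus wt, JTE minus control and JTE + CTGF minus JTE. Called members are red where higher and blue where lower. Intervals around Fgf11 with JTE013 and around Fgf1 with added CTGF lie far from 0, and most of the receptors lie close to it.

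Fgf10 stood out among the ligands under JTE013. Its counts were 83.7, 83.3 and 86.3 in wt and 66.7, 80.3 and 97.6 in the libraries labelled S1pr2 null. In culture they were 60.5, 70.4 and 61.4 in control, 186, 149 and 258 in JTE and 118, 113 and 123 in JTE + CTGF, so the 3 cultured groups did not overlap and those with CTGF lay in between. With JTE013 Fgf10 was 3.08-fold higher (log2 difference 1.62 ± 0.18 SE, adjusted p = 1.21e-06). Adding CTGF left it 1.68-fold lower (log2 difference -0.75 ± 0.17 SE, adjusted p = 0.00297) than with JTE013 alone, still 1.84-fold higher (log2 difference 0.88 ± 0.19 SE, adjusted p = 0.00072) than in control. In the null comparison the difference was -0.04 (95% CI -0.43 to 0.34, adjusted p = 0.893), and the test of the difference between the JTE and null responses gave 1.67 (adjusted p = 7.04e-05).

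JTE 3, the library with the highest sum of mesenchymal markers, also held the highest Fgf10 count. Without it the JTE difference was 1.38 (adjusted p = 1.24e-06) and the CTGF difference shrank from -0.75 to -0.47 (adjusted p = 0.0232). Mesenchymal markers summed to 129800 to 136600 normalised read counts in control and 140400 to 172500 in JTE, sums that mainly follow the collagens. Of these markers 2 of 10 were higher and 2 lower, where 25.9% and 26.2% of all tested genes were. Their part in the Fgf10 difference was not tested. In these bulk samples fewer cells of a type and less RNA per cell cannot be told apart.

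Fgf11, an intracellular factor that binds voltage-gated sodium channels rather than FGF receptors, responded evenly across libraries. Wt libraries held 231, 227 and 235 counts and those labelled S1pr2 null 221, 224 and 241, overlapping ranges. After 2 days in standard medium the counts were 114, 138 and 146, below every uncultured library, whereas JTE libraries held 384, 332 and 356 and JTE + CTGF libraries 364, 309 and 308, above every uncultured library. It was 1.74-fold lower (log2 difference -0.80 ± 0.10 SE, adjusted p = 3.95e-06) in control explants than in wt and 2.69-fold higher (log2 difference 1.43 ± 0.10 SE, adjusted p = 5.9e-09) with JTE013 than without. With CTGF added it differed from JTE013 alone by -0.13 (95% CI -0.32 to 0.06, adjusted p = 0.312) on the log2 scale. The null comparison gave -0.01 (95% CI -0.21 to 0.18, adjusted p = 0.936), close to 0 with a narrow interval.

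Fgf21, an endocrine FGF released by liver and exocrine pancreas and known to be induced by metabolic and cellular stress, was named after its values were seen. It was almost silent outside the JTE013 groups, with 3, 2 and 5 reads in wt, 0, 2 and 1 in the libraries labelled S1pr2 null and 1, 4 and 3 in control. JTE libraries held 22, 25 and 39 reads and JTE + CTGF libraries 83, 36 and 26, so every treated library exceeded every untreated one. The pooled ratio to control was 10.4 with JTE013 (exact conditional 95% interval 5.04 to 24.8) and 20.3 with JTE013 and CTGF (10 to 47.8), intervals that cover counting error only. In the test across libraries the JTE difference was 3.31 (adjusted p = 0.000145) on the log2 scale.

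A further rise with CTGF, 0.96 (adjusted p = 0.0484), rested on library JTE + CTGF 1. Without that library it was 0.34 (adjusted p = 0.459), and 14 of the 20 alternatives lost the call. Klb, the co-receptor that Fgf21 needs and likewise picked after its values were seen, moved the other way: its counts were 231, 240.3 and 199.9 in control, 187, 179.7 and 122 in JTE and 101, 114 and 135 in JTE + CTGF, the JTE difference being -0.46 (adjusted p = 0.0132). Acinar markers summed to 101500 to 144600 normalised read counts in control and 93860 to 200800 in JTE, overlapping ranges. Of these markers 1 of 6 was higher and 0 lower, where 25.9% and 26.2% of all tested genes were. JTE 3, lowest in acinar markers, had the highest Fgf21 of its group, on few reads. The part of the acinar markers in the Fgf21 difference was not tested.

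Fgf1, a ligand that binds every FGF receptor, showed the largest fall among the called members, between JTE + CTGF and control. It held 114, 110.1 and 92.9 counts in wt and 117, 106 and 101 in the libraries labelled S1pr2 null, overlapping ranges. In culture the counts stepped down from 179, 149 and 105 in control to 59.2, 100.1 and 66.0 in JTE and 17.1, 25.2 and 22.5 in JTE + CTGF, without overlap between groups. JTE013 left it 1.92-fold lower (log2 difference -0.94 ± 0.20 SE, adjusted p = 0.000752), and CTGF added to JTE013 left it 3.46-fold lower (log2 difference -1.79 ± 0.27 SE, adjusted p = 9.04e-05) again. Between JTE + CTGF and control it was 6.65-fold lower (log2 difference -2.73 ± 0.25 SE, adjusted p = 8.03e-08).

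Its relative Fgf2, named after its values were seen, behaved differently under the antagonist. Uncultured libraries held 22.5, 18.2 and 22.5 counts in wt and 16.7, 13.8 and 16.8 in those labelled S1pr2 null. Control explants held 42.5, 37.2 and 34.4, JTE explants 64.5, 56.2 and 71.6 and JTE + CTGF explants 27.4, 35.5 and 27.2, so the JTE libraries lay above all others. Fgf2 was 1.69-fold higher (log2 difference 0.76 ± 0.17 SE, adjusted p = 0.00144) with JTE013 and 2.13-fold lower (log2 difference -1.09 ± 0.18 SE, adjusted p = 0.000255) once CTGF was added, ending at -0.34 (95% CI -0.74 to 0.07, adjusted p = 0.159) against control. Its exons overlap Nudt6 on the opposite strand over 13.4% of the exonic length and 10.9% of its 50-base words occur in other genes, so its counts are less certain than those of Fgf1.

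Fgf9, an epithelial and mesothelial ligand, was lower in culture and higher in both S1pr2 contrasts. Counts were 104, 86.2 and 109.8 in wt and 128, 145 and 149 in the libraries labelled S1pr2 null, the latter all higher. They were 41.4, 52.3 and 47.9 in control, 64.5, 63.3 and 80.0 in JTE and 57.2, 66.4 and 41.5 in JTE + CTGF. Fgf9 was 1.403-fold higher (log2 difference 0.49 ± 0.15 SE, adjusted p = 0.0221) in the null comparison and 1.47-fold higher (log2 difference 0.56 ± 0.18 SE, adjusted p = 0.0152) with JTE013, and the difference between these responses was 0.07 (95% CI -0.42 to 0.55, adjusted p = 0.843). The JTE call was lost without JTE 3, 0.43 (adjusted p = 0.0737), or without control 1, 0.47 (adjusted p = 0.0611). The null call was lost without wt 2, 0.39 (adjusted p = 0.114), or without null 2 or null 3. Control explants lay below wt, 2.12-fold lower (log2 difference -1.08 ± 0.17 SE, adjusted p = 3.82e-05).

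Fgf13, an intracellular factor also known to bind microtubules and sodium channels, rose in culture and fell with JTE013. Counts in wt were 75.6, 71.8 and 77.0 and in the libraries labelled S1pr2 null 85.4, 93.3 and 75.7. They reached 105, 124 and 143 in control and stood at 63.5, 82.7 and 103 in JTE and 60.6, 73.3 and 59.2 in JTE + CTGF, all lower than in control. It was 1.65-fold higher (log2 difference 0.73 ± 0.16 SE, adjusted p = 0.00111) in control than in wt and 1.48-fold lower (log2 difference -0.57 ± 0.16 SE, adjusted p = 0.00759) with JTE013. Fgf11 and Fgf13 of the same subfamily therefore moved in opposite directions both in culture and with the antagonist.

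Fgf7 stayed close to the detection limit in every group. Its counts were 1.80, 3.83 and 3.75 in wt, 0, 0.923 and 1.68 in the libraries labelled S1pr2 null, 9.55, 6.03 and 11.5 in control, 12.7, 7.15 and 6.51 in JTE and 10.3, 12.6 and 8.29 in JTE + CTGF. Control libraries all lay above wt, a pooled ratio of 2.89 (95% counting interval 1.35 to 6.72) with a log2 difference of 1.495 (adjusted p = 0.0134) that lost its call without wt 1 or control 3. With JTE013 the difference was -0.05 (95% CI -0.89 to 0.79, adjusted p = 0.934), an interval whose upper bound lies below the difference of Fgf10, which shares its receptor, 1.62 (adjusted p = 1.21e-06). Of the other ligands Fgf16 (Fgf9 subfamily) was lower with JTE013, -1.69 (adjusted p = 0.0277), at 2.79 to 20.2 normalised read counts in the libraries compared, and lost the call without JTE 2, control 1 or JTE 3, the last leaving -1.51 (adjusted p = 0.0768). Fgf18 and Fgf5 were lower in control explants than in wt, with log2 differences of -0.59 (adjusted p = 0.0114) and -1.42 (adjusted p = 0.0294). In the libraries labelled S1pr2 null Fgf5 lay above every wt library without a call, 0.99 (95% CI 0.18 to 1.80, adjusted p = 0.0683). A call was made there under 4 of 20 alternatives. Fgf12 was higher in control than in wt, 0.45 (adjusted p = 0.0364), Fgf14 was lower in JTE + CTGF than in control, -1.11 (adjusted p = 0.0453), and Fgf20 was not called. These genes were picked for their calls, and each of the calls on Fgf5, Fgf12, Fgf14 and Fgf18 was lost without at least 1 of the libraries, that on Fgf14 among others without JTE 3, -1.08 (adjusted p = 0.0568).

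**Figure D3:**
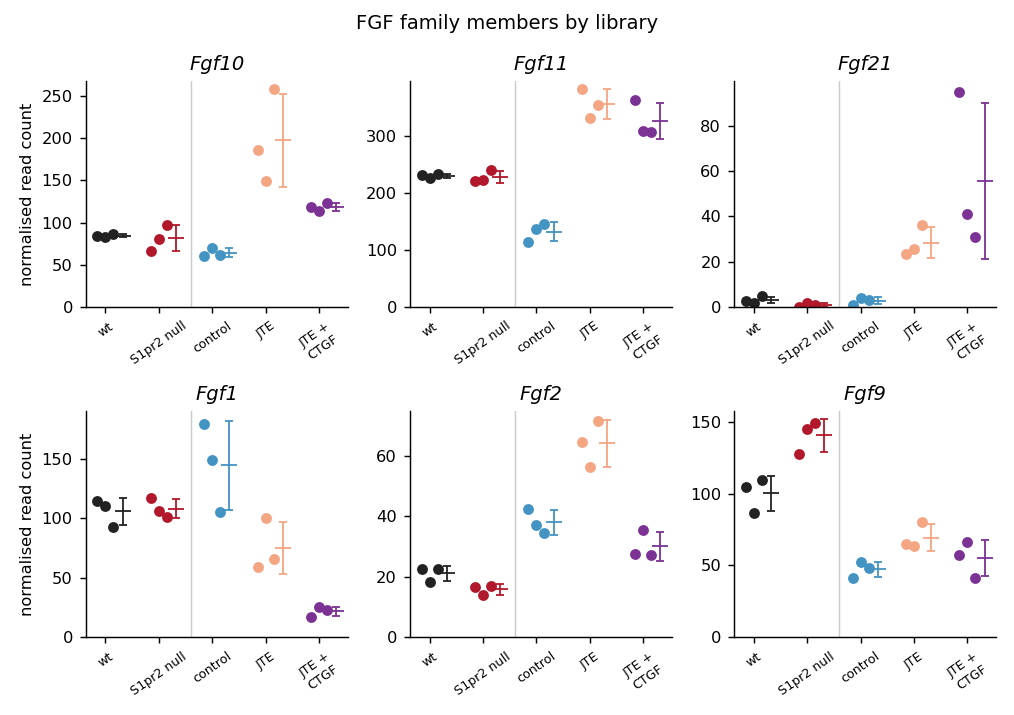
Normalised read count by library (points) for 6 FGF genes, with group mean and SD (bars, n = 3) and a grey line between uncultured and cultured groups. Fgf10, Fgf11 and Fgf21 are higher in all JTE libraries than in all control libraries, Fgf1 steps down from control to JTE to JTE + CTGF, and Fgf2 is highest in JTE.

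Receptor differences stayed within 1.62-fold in all 5 comparisons. Fgfr1, the main receptor of mesenchymal cells, held 1959, 1910 and 1918 counts in wt and 2521, 2437 and 2602 in the libraries labelled S1pr2 null, 1.31-fold higher (log2 difference 0.39 ± 0.05 SE, adjusted p = 4.43e-05). In culture it held 2102, 2110 and 2071 in control, 2253, 2202 and 2324 in JTE and 2842, 2463 and 2601 in JTE + CTGF. The JTE difference was 0.11 (95% CI 0.001 to 0.22, adjusted p = 0.0837), and with CTGF added Fgfr1 was 1.17-fold higher (log2 difference 0.22 ± 0.05 SE, adjusted p = 0.00359) than with JTE013 alone. Of the mesenchymal markers 6 of 10 were higher and 2 lower in the null comparison, where 12.6% and 13.3% of all tested genes were. Their sum was lower, at 137500 to 139600 in wt and 111000 to 130900 in the libraries labelled null. That sum mainly follows the collagens Col1a1, Col1a2 and Col3a1, with means of 40700, 31770 and 50670 in wt and 31440, 28340 and 41580 in the libraries labelled null. The spleen mesenchyme markers Tlx1 and Nkx2-5 were both higher, summing to 332 to 636 against 171 to 217. Their part in the result was not tested.

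Fgfr2, the receptor of Fgf10 in the pancreatic epithelium, held 1321, 1185 and 1209 counts in wt and 1481, 1593 and 1425 in the libraries labelled S1pr2 null, which were all higher although the difference was not called, 0.28 (95% CI 0.06 to 0.49, adjusted p = 0.0543), and was called under 10 of 20 alternatives, among them without JTE 3, 0.27 (adjusted p = 0.0148). Cultured groups held 1221, 1125 and 992 in control, 1100, 1075 and 822 in JTE and 699, 891 and 811 in JTE + CTGF, the lowest JTE value being that of JTE 3. JTE013 alone gave -0.16 (95% CI -0.38 to 0.06, adjusted p = 0.22). CTGF on top of it gave -0.32 (adjusted p = 0.0327), which lost the call when JTE 1, JTE 2, JTE + CTGF 1 or JTE + CTGF 3 was left out, and JTE + CTGF against control gave -0.48 (adjusted p = 0.000989). Isoforms were not separated by counts per gene, and 4.34% of the exonic length of Fgfr2 overlaps Ctbp2 on the same strand.

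Fgfr3 was called in 4 of the 5 comparisons. Counts were 486, 560.3 and 517 in wt and 412, 404 and 414 in the libraries labelled S1pr2 null, 1.27-fold lower (log2 difference -0.34 ± 0.11 SE, adjusted p = 0.0265), a call that leaving out 1 library of either group except wt 1 ended. Control explants held 307, 326 and 333, JTE explants 511, 545 and 358 and JTE + CTGF explants 305, 295 and 277. It fell in culture, 1.62-fold lower (log2 difference -0.69 ± 0.11 SE, adjusted p = 5.12e-05), rose with JTE013, 1.46-fold higher (log2 difference 0.55 ± 0.11 SE, adjusted p = 0.00068), and returned with CTGF, 1.61-fold lower (log2 difference -0.68 ± 0.12 SE, adjusted p = 0.000316), to a level that differed from control by -0.14 (95% CI -0.39 to 0.12, adjusted p = 0.338). JTE 3 was the lowest JTE library, and without it the JTE difference was 0.71 (adjusted p = 6.53e-07). An antisense gene covers 11.1% of its exonic length.

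Fgfr4, a receptor of the endoderm and of the liver, held 801, 671 and 724 counts in wt and 766, 896 and 834 in the libraries labelled S1pr2 null. It held 760.2, 784 and 744 in control, 558, 593 and 521 in JTE and 457, 584 and 495 in JTE + CTGF, and no treated library reached the lowest control. Fgfr4 was 1.37-fold lower (log2 difference -0.45 ± 0.09 SE, adjusted p = 0.000309) with JTE013, and CTGF did not change that call, the further difference being -0.12 (95% CI -0.31 to 0.07, adjusted p = 0.34). Epithelial markers fell beside it, 8 of 10 lower with JTE013 and 0 higher, against 26.2% and 25.9% of all genes, with a median of -0.69 on the log2 scale and sums of 42570 to 48400 in control and 26770 to 33360 in JTE. Their part in the Fgfr4 difference was not tested.

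Fgfrl1 was called in no comparison. It held 1188, 1237 and 1176 counts in wt, 1379, 1304 and 1253 in the libraries labelled S1pr2 null, 1295, 1165 and 1231 in control, 1225, 1256 and 1144 in JTE and 1211, 1389 and 1288 in JTE + CTGF, overlapping throughout the cultured groups. The JTE difference was -0.03 (95% CI -0.15 to 0.10, adjusted p = 0.739), an interval that does not reach the differences estimated for Fgfr3 and Fgfr4.

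**Figure D4:**
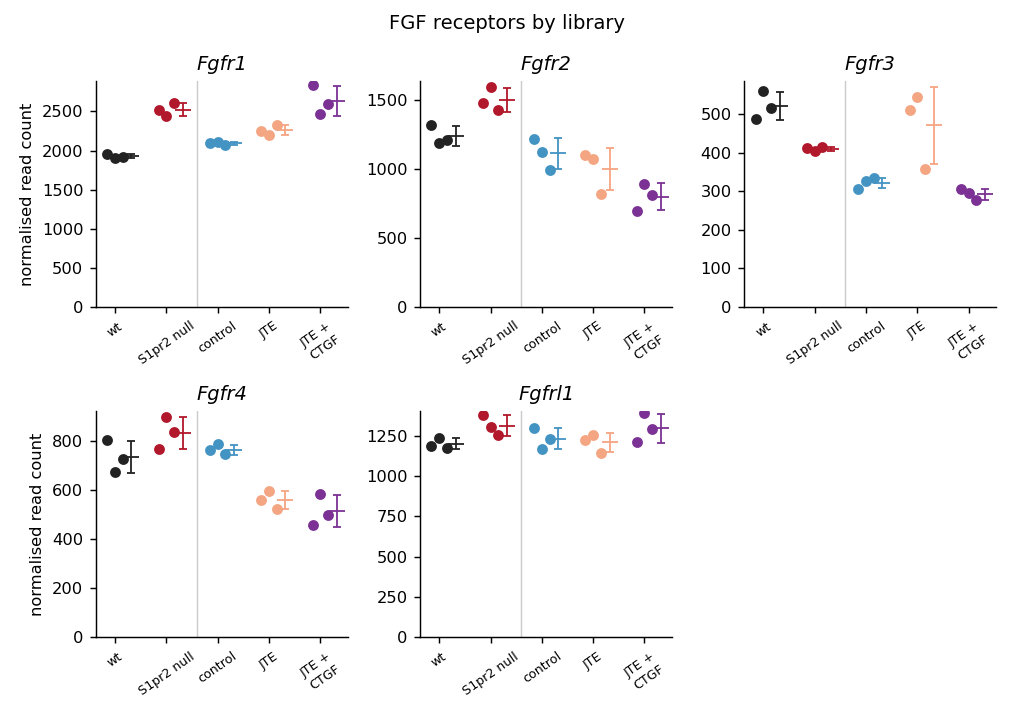
Normalised read count by library for the 5 receptors, with group mean and SD (n = 3), each axis starting at 0. Fgfr3 is raised in JTE and back at the control level in JTE + CTGF, Fgfr4 is below control in both treated groups, and Fgfrl1 is level across groups.

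The ETS factors are the transcriptional targets of FGF-ERK signalling in the list. With JTE013 2 of 3 were called lower than in control, where 26.2% of all genes were. With JTE013 and CTGF 3 of 3 were called lower than in control, where 33% of all genes were. Etv4 held 121, 84.3 and 116 counts in wt and 111, 119 and 104 in the libraries labelled S1pr2 null, overlapping ranges with a difference of 0.05 (95% CI -0.26 to 0.36, adjusted p = 0.841). It held 110.4, 107 and 95.8 in control, 56.1, 55.1 and 61.4 in JTE and 42.3, 60.7 and 42.6 in JTE + CTGF, every treated library being lower than every control. Etv4 was 1.81-fold lower (log2 difference -0.85 ± 0.16 SE, adjusted p = 0.000309) with JTE013 and 2.14-fold lower (log2 difference -1.10 ± 0.17 SE, adjusted p = 3e-05) with JTE013 and CTGF.

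Etv1 showed the same order. Its counts were 154, 170.5 and 164 in wt and 139, 149 and 153 in the libraries labelled S1pr2 null, where it was not called, -0.15 (95% CI -0.34 to 0.05, adjusted p = 0.262). They were 193, 214 and 207 in control, 112, 127 and 117 in JTE and 101, 105 and 98.3 in JTE + CTGF. It was 1.73-fold lower (log2 difference -0.79 ± 0.09 SE, adjusted p = 2.59e-06) with JTE013 and 2.02-fold lower (log2 difference -1.01 ± 0.10 SE, adjusted p = 1.42e-07) with CTGF as well, and the step from JTE to JTE + CTGF was -0.23 (95% CI -0.44 to -0.01, adjusted p = 0.129). Of its 50-base words 9.08% occur in other genes.

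Etv5 was less clear. It held 360.1, 357 and 365 counts in wt and 304, 289 and 290.2 in the libraries labelled S1pr2 null, the latter all lower without a call, -0.29 (95% CI -0.55 to -0.03, adjusted p = 0.092), although a call was made without JTE 3, -0.30 (adjusted p = 0.0106), with no filter on low counts, -0.30 (adjusted p = 0.0495), and with only the libraries of the comparison, -0.29 (adjusted p = 0.00504). In culture it held 284, 312 and 271 in control, 213, 198 and 308 in JTE and 223, 179 and 171 in JTE + CTGF, and only JTE 3 among the treated libraries was within the control range. With all libraries the JTE difference was -0.26 (95% CI -0.54 to 0.01, adjusted p = 0.101), and without JTE 3 it was -0.49 (adjusted p = 0.000598). JTE + CTGF lay below control, 1.51-fold lower (log2 difference -0.60 ± 0.14 SE, adjusted p = 0.00114). About 24.5% of its 50-base words are shared with other genes, so reads from there could be lost or misplaced.

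Dusp6, the cytoplasmic phosphatase that inactivates ERK and is itself induced by ERK, fell as well. It held 632, 568 and 542 counts in wt, 542, 581 and 584 in the libraries labelled S1pr2 null and 523, 545 and 533 in control, overlapping between the uncultured groups. JTE libraries held 409, 366 and 403 and JTE + CTGF libraries 407, 482 and 399, below all of these. Dusp6 was 1.36-fold lower (log2 difference -0.44 ± 0.08 SE, adjusted p = 0.000154) with JTE013 and 1.24-fold lower (log2 difference -0.31 ± 0.08 SE, adjusted p = 0.00239) with CTGF as well. Its nuclear relative Dusp4, named after its values were seen, went the other way, from 304, 290.5 and 297 in control to 431, 474 and 511 in JTE, 1.59-fold higher (log2 difference 0.67 ± 0.12 SE, adjusted p = 0.000241). In JTE + CTGF it stood at 474, 315 and 312, where library 1 alone remained at the JTE level: the difference from control, 0.31 (adjusted p = 0.0471), became 0.08 (adjusted p = 0.487) without it and was also lost when any 1 control library was left out. The difference from JTE, -0.36 (adjusted p = 0.0335), became -0.27 (adjusted p = 0.135) without JTE 3 and was also lost without JTE 2 or JTE + CTGF 2 or 3.

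Sprouty genes, feedback inhibitors of receptor signalling, did not move as a unit. Spry4 held 382, 349 and 363 counts in wt, 409, 428 and 421 in the libraries labelled S1pr2 null, 327, 457 and 445 in control, 312, 334 and 313 in JTE and 333, 337 and 308 in JTE + CTGF. It was 1.28-fold lower (log2 difference -0.36 ± 0.10 SE, adjusted p = 0.00508) with JTE013, with control 1 within the range of the treated libraries, and the call against control in JTE + CTGF, -0.33 (adjusted p = 0.00774), was lost without control 2. Spry1 held 583, 488 and 524 in wt and 730.1, 622 and 660.4 in the libraries labelled S1pr2 null, 1.26-fold higher (log2 difference 0.33 ± 0.08 SE, adjusted p = 0.00394), and was 1.25-fold lower (log2 difference -0.32 ± 0.08 SE, adjusted p = 0.00257) in control explants than in wt.

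Cultured libraries held 435, 450.4 and 395 Spry1 counts in control, 508, 447 and 496 in JTE and 529, 548 and 525 in JTE + CTGF, where the call was against control, 1.25-fold higher (log2 difference 0.32 ± 0.08 SE, adjusted p = 0.0024). A predicted antisense gene covers 24.4% of the exonic length of Spry1. Spry2 held 399.7, 360.1 and 362 in wt, 389, 419 and 436 in the libraries labelled S1pr2 null, 329, 377 and 382 in control, 356, 348 and 404 in JTE and 410.5, 420.2 and 398 in JTE + CTGF, with a JTE difference of 0.03 (95% CI -0.14 to 0.19, adjusted p = 0.793). The Spred genes, which keep RAF from being activated, were called once or more and are named for that: Spred1 in the null comparison, 0.30 (adjusted p = 0.00873), lost without wt 2, and Spred2 between JTE + CTGF and JTE, -0.31 (adjusted p = 0.0219), a call lost without JTE + CTGF 3 or without JTE 3, -0.23 (adjusted p = 0.111), and between JTE + CTGF and control, -0.44 (adjusted p = 0.00088).

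**Figure D5:**
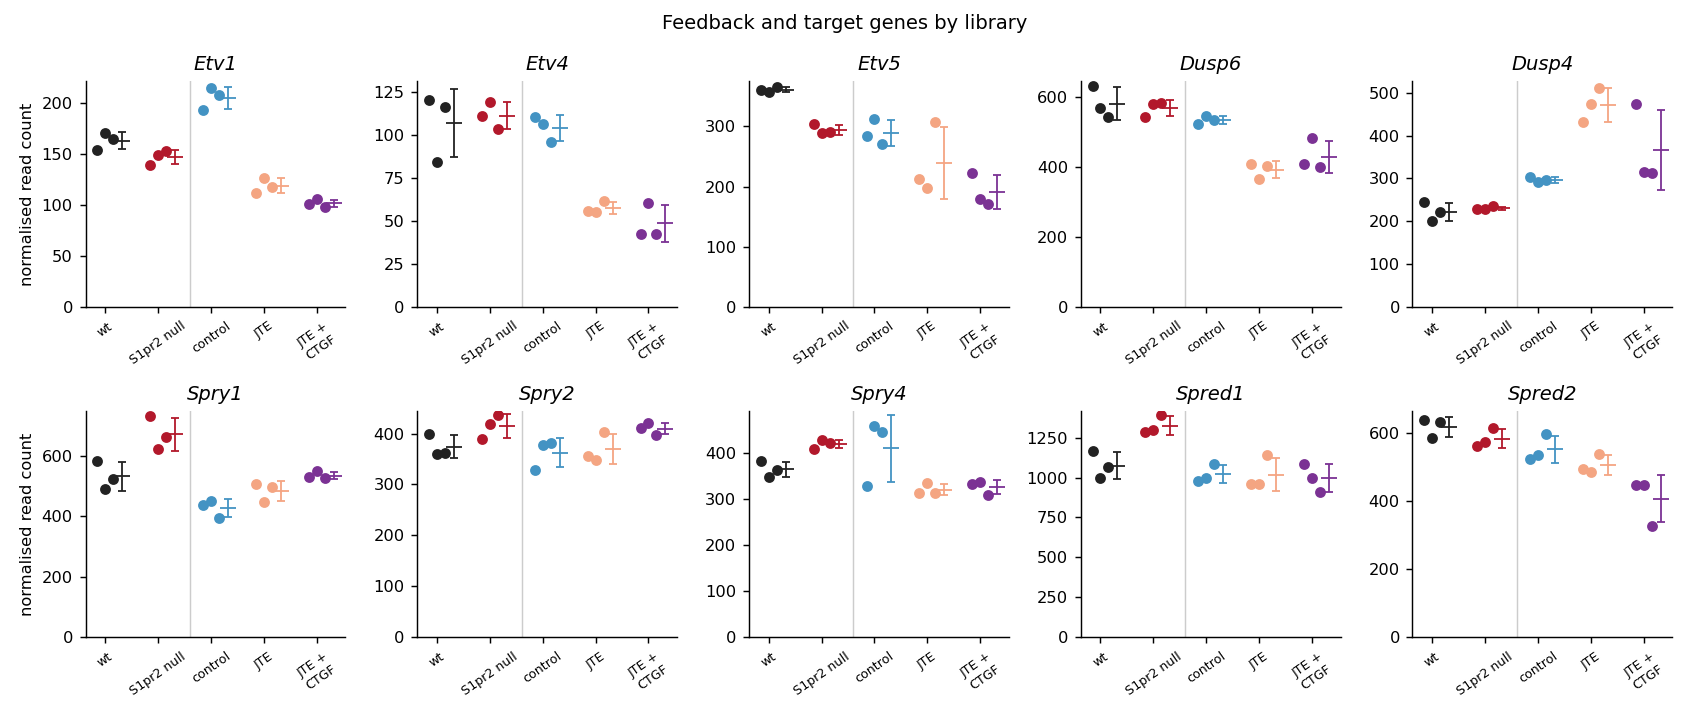
Normalised read count by library for the 3 ETS factors, 2 phosphatases and 5 Sprouty and Spred genes, with group mean and SD (n = 3). Etv1, Etv4 and Dusp6 are lower in all 6 treated explant libraries than in all control libraries, Dusp4 is higher, and Spry2 is level.

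Of the 10 feedback and target genes 1 was called higher and 4 lower with JTE013, where 25.9% and 26.2% of all genes were. In JTE + CTGF against control the same list counted 2 higher and 6 lower, against 28.1% and 33%. In the null comparison 2 were higher and 0 lower, against 12.6% and 13.3%. The ligands and homologous factors counted 5 higher and 3 lower of 14 tested with JTE013, against the same 25.9% and 26.2%. When CTGF was added to it 1 was higher and 3 lower, against 13.6% and 16.8%.

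Antagonist and genotype were compared directly through the difference between the JTE response and the response labelled S1pr2 null. This was called for 17 of 29 members, 6 higher and 11 lower, where 42.9% of all genes were, 21.5% in each direction. Fgf10, Fgf11, Fgf21, Fgf2, Fgfr3 and Dusp4 were higher with JTE013 relative to the null response, and Fgf1, Fgf13, Fgf16, Etv1, Etv4, Dusp6, Spry4, Fgfr1, Fgfr2, Fgfr4 and Spred1 were lower. Of these 17, 13 were called with JTE013 and not in the null comparison, and 1, Fgfr3, was called in both with opposite directions. Over all tested genes 52.2% were called with JTE013 and 25.8% in the null comparison, so this split is no result about the members. The 2 responses come from cultured dorsal explants and uncultured tissue, so culture, age and the part of the pancreas taken cannot be told apart from the kind of S1pr2 loss.

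Of the 15 members called with JTE013, 4 were called in the opposite direction between JTE + CTGF and JTE, namely Fgf10, Fgf2, Fgfr3 and Dusp4. In all 11 members were called the same way against control with and without CTGF, namely Fgf1, Fgf10, Fgf11, Fgf13, Fgf21, Fgfr4, Etv1, Etv4, Dusp4, Dusp6 and Spry4. Of all tested genes 52.2% were called with JTE013 and 61.1% with JTE013 and CTGF, against the same control libraries. The shares of all genes called in these 2 patterns were not counted. The 11 and the 4 are therefore no result about the members as a set. None of the ETS factors was called between JTE + CTGF and JTE, with differences from -0.33 to -0.23 on the log2 scale, except Etv5 when JTE 2 or JTE + CTGF 1 was left out.

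The wider pathway was read from lists chosen for their roles. Of 25 cofactors and extracellular modulators, which include the heparan sulphate enzymes and proteoglycans that receptors need, 11 were higher and 0 lower in the libraries labelled S1pr2 null, where 12.6% and 13.3% of all tested genes were. Gpc6, a glypican, stood at 0.91 (adjusted p = 9.35e-06) on the log2 scale, the carrier protein Fgfbp3 at 0.84 (adjusted p = 0.00203) and the sulphatase Sulf2 at 0.62 (adjusted p = 3.84e-05). With JTE013 9 were higher and 10 lower, against 25.9% and 26.2% of all genes, with the adhesion protein Flrt1, an FGF receptor partner, furthest up at 1.71 (adjusted p = 1.99e-08) and the syndecan Sdc3 furthest down at -0.91 (adjusted p = 3.86e-07). Fgfbp3 and Gpc1 also rose, by 0.53 (adjusted p = 0.0331) and 0.48 (adjusted p = 8.06e-05), and Hs6st2 and Sulf1, which add and remove 6-O-sulphates, fell, with log2 differences of -0.72 (adjusted p = 7.32e-05) and -0.71 (adjusted p = 0.000206). The sulphatases were split, since Sulf2 stood higher, at 1896, 2126 and 2028 counts in control and 2523, 2665 and 3260 in JTE.

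Once CTGF was added 1 of the 25 cofactors rose and 12 fell, against 13.6% and 16.8% of all genes. Flrt1, at 60.5, 84.5 and 67.7 counts in control and 212, 244 and 240 in JTE, came down to 121, 116 and 93.6, 2.10-fold lower (log2 difference -1.07 ± 0.13 SE, adjusted p = 1.04e-05). Flrt2 and the sulphotransferase Ndst1 fell, with log2 differences of -0.57 (adjusted p = 1.7e-06) and -0.56 (adjusted p = 5.05e-06), and Hs2st1 rose by 0.15 (adjusted p = 0.0477). Control explants differed from wt with 7 higher and 10 lower, against 28.5% and 29.3% of all genes, Klb and Sdc3 leading upwards at 0.73 (adjusted p = 0.000446) and 0.67 (adjusted p = 6.32e-06) and Flrt2 and Sulf1 downwards at -0.97 (adjusted p = 1.61e-10) and -0.91 (adjusted p = 8.19e-06).

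Among 21 intracellular transducers 10 were higher and 2 lower with JTE013, against 25.9% and 26.2% of all genes. The docking protein Frs3 and the exchange factor Sos2 rose by 0.64 (adjusted p = 0.000598) and 0.56 (adjusted p = 1.72e-05), the kinase Braf by 0.52 (adjusted p = 0.000246), while Mapk3, which encodes ERK1, fell, -0.45 (adjusted p = 1.84e-06), as did the adaptor Gab1, -0.19 (adjusted p = 0.00305). CTGF on top of JTE013 gave 3 higher and 6 lower, against 13.6% and 16.8%. The ubiquitin ligase Cbl, which removes activated receptors from the membrane, fell from 352, 360.4 and 431 counts in JTE to 162, 102 and 91.2 in JTE + CTGF, 3.21-fold lower (log2 difference -1.68 ± 0.15 SE, adjusted p = 7.22e-07), and Mapk3 rose back, 0.36 (adjusted p = 6.69e-05). In the null comparison 2 transducers were higher and 0 lower, against 12.6% and 13.3%, Plcg1 by 0.28 (adjusted p = 0.0153) and Sos1 by 0.19 (adjusted p = 0.0377).

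Other ERK-responsive genes, of which 8 of 10 could be tested, counted 1 higher and 4 lower with JTE013, against 25.9% and 26.2% of all genes. The early genes Fos and Phlda1 and the cyclin Ccnd1 fell, with log2 differences of -1.21 (adjusted p = 4.12e-05), -1.02 (adjusted p = 7.31e-08) and -1.04 (adjusted p = 6.21e-07), and Ier3 rose by 0.22 (adjusted p = 0.0307). In the null comparison 0 were higher and 4 lower, against 12.6% and 13.3%, Egr1 leading at -0.86 (adjusted p = 0.000279), with Spred3 at -0.51 (adjusted p = 0.0183) and Dusp5 at -0.43 (adjusted p = 0.019). With CTGF added 3 rose and 1 fell, against 13.6% and 16.8%: Fos, Egr1 and Ier3 were higher by 0.54 (adjusted p = 0.0443), 0.37 (adjusted p = 0.0155) and 0.35 (adjusted p = 0.00272), and Ccnd1 was lower, -0.38 (adjusted p = 0.0179). Between control explants and wt 5 were higher and 1 lower, against 28.5% and 29.3% of all genes. Early genes were far higher in control explants, Fos by 3.79 (adjusted p = 9.42e-10), Ier3 by 2.77 (adjusted p = 1.28e-12) and Egr1 by 2.63 (adjusted p = 1.22e-11). Ccnd1 stood lower, at a mean of 1442 counts in control against 4592 in wt.

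Cell type markers moved in the same comparisons and are given as measured. With JTE013 all 6 endocrine markers were lower, with sums of 8175 to 11770 normalised read counts against 52630 to 59630 in control, as were 4 of 5 endothelial and all 4 leukocyte markers, where 26.2% of all tested genes were lower. In the libraries labelled S1pr2 null 7 of 10 epithelial markers were lower, summing to 23520 to 24760 against 30180 to 32740 in wt, and so were 5 of 6 acinar markers, at 15220 to 16220 against 33770 to 50850, where 13.3% of all genes were lower. Of the endocrine markers 5 of 6 were lower there too, at 10110 to 11980 against 21210 to 24210 in wt, and no endothelial or leukocyte marker was called. Defining markers of pancreas, Pdx1 and Ptf1a, were present in every library. The part of these shifts in the differences of FGF genes was not tested.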

How the data were processed

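Poly(A) RNA of 15 pancreas samples was sequenced with a strand-specific kit. According to the methods and the submitters' processing notes, the authors aligned single-end reads to mm10 with GSNAP and counted uniquely aligned reads per gene with featureCounts 1.4.6. The deposited values are raw counts per gene, and whether counting used the strand is not given in the sources used here. Symbols were found for 24750 of 25292 identifiers.

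Counts were tested with edgeR 4.0.16 (R 4.3.3), TMM scaling, filterByExpr and the quasi-likelihood test, with all 15 libraries in 1 fit, 1 coefficient per group and Benjamini-Hochberg adjustment over 16245 genes. The biological coefficient of variation was 7.3%. To give normalised read counts, each count was divided by its library's TMM-scaled size relative to the mean. RPKM used the union of annotated exons. Depth was 11402804 to 13828737 reads per library. The pipeline was tested on simulated data.

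The members and lists were chosen with earlier results of these data known. Libraries were grouped by their labels. Values per library are given for members that reached adjusted p below 0.05, a fold under 0.6 or over 1.6 and a group mean over 100 counts in any 2-group comparison, and for Fgf7, Fgf9, Fgf10, the 5 receptors, Spry1, Spry2, Spry4, Dusp6, Etv4 and Etv5. From pathway lists up to 3 genes per direction were named. Upstream windows came from RefSeq tables. Alternatives were DESeq2 1.42.0, its size factors in edgeR, no filter, only the libraries compared, a replicate block and leaving out each library.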

Additional observations from a re-analysis of the deposited data

Results flagged for a closer look

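For 17 members the explants' response to JTE013 differed from that of libraries labelled S1pr2 null against wt, by the test of that difference itself (edgeR's quasi-likelihood test, adjusted p below 0.05). The differences, JTE response minus null response on the log2 scale, were positive for 6 members: Fgf21 4.95, Fgf10 1.67, Fgf11 1.44, Fgf2 1.17, Fgfr3 0.89 and Dusp4 0.61. They were negative for 11: Fgf16 -2.52, Fgf1 -0.97, Etv4 -0.91, Fgf13 -0.75, Etv1 -0.64, Fgfr4 -0.64, Spry4 -0.56, Fgfr2 -0.43, Dusp6 -0.41, Spred1 -0.30 and Fgfr1 -0.28. Fgf16 and Fgf21 rest on few reads, and Fgf16, Fgfr2 and Spred1 lost this call when a library was left out.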

How the results depend on the processing

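No called value reversed under any alternative. Of 59 calls in the 2-group comparisons 41 held under all 20 alternatives, 18 were lost under at least 1, and 22 uncalled values gained a call under at least 1. A further 60 estimates of uncalled values changed sign without a call. The number of members called between S1pr2 null and wt, 5, became 8 with no filter on low counts and 11 with only those libraries in the fit, and the number between JTE + CTGF and JTE, 9, became 5 with only those libraries. Leaving out 1 library gave 2 to 7 calls for null against wt, 13 to 16 for JTE against control, 6 to 9 for JTE + CTGF against JTE, 15 to 18 for JTE + CTGF against control, 10 to 16 for control against wt and 15 to 17 for the difference of responses. The 2 calls came without wt 2 and the 6 without JTE + CTGF 3, and the cause was not tested. For null and wt, same-numbered libraries correlated at -0.06 to 0.069, within the -0.114 to 0.145 of differently numbered ones. For JTE and control, same-numbered libraries correlated at -0.047 to 0.248 and differently numbered ones at -0.241 to 0.165. The highest value was that of JTE 3 and control 3, so a pairing by replicate number was not settled for this contrast. With the replicate block the counts of members called were 6, 15, 8, 17, 14 and 17 in the order above. Members with few reads, such as Fgf7, Fgf16 and Fgf21, are limited by depth.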
